A study of Mus musculus with 6 samples.

Results

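The genes described here encode lysosomal hydrolases, cathepsins and membrane proteins, 40 genes chosen by the known function of their products and matched by the platform's gene symbol. They were divided into 11 cathepsins and other proteases, 12 glycosidases and sulfatases, 7 lipid enzymes and lipid-handling proteins, 8 membrane proteins, and 2 further genes, Grn and Gnptab. Probes were matched for 39 of the 40 genes, 61 of the 16281 probes on the array, and Gnptab was not matched. Of these, 35 genes had a probe with a measured ratio on all 6 arrays and were tested among 9160 such genes.

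RAW 264.7 cells, an established line of transformed mouse macrophages, were cultured for 48 h with lipopolysaccharide (LPS, 100 ng/ml) and LPS-binding protein (LBP, 100 pM), or for 48 h untreated. LPS is a glycolipid from the outer membrane of Gram-negative bacteria, and LBP, made mainly by the liver, passes it to CD14 and Toll-like receptor 4. RNA from each kind of culture was hybridised against the other on 6 two-colour arrays, 3 with treated RNA in Cy5 and 3 with treated RNA in Cy3, and each orientation had a set 1, a set 2 and a set 3. All groups share 1 cell line, nothing in the labels says whether sets came from separate cultures, and the p-values therefore measure the spread between sets, which may be technical.

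Each value is the log2 of the treated signal over the untreated signal, so a positive value means more transcript in treated cells. The base of the deposited logarithm is not stated and was read as 2, on which every fold given here rests. A gene's mean and SD are over the 3 sets, each the average of its 2 dye orientations (n = 3), and a gene was counted as higher or lower when limma's adjusted p was under 0.05. A ratio holds no level, so expression of macrophage markers could not be checked, abundances of different genes cannot be compared, and a smaller share of cells with a transcript cannot be told apart from less of it per cell. Between 7.97% and 17.8% of ratios on an array were exactly 0, which were taken as placeholders and set to missing. The deposited median of every array was 0. The textbook LPS-induced genes Il6, Il1b, Nos2 and Tnf were higher on all 6 arrays (3.81, 3.53, 1.11 and 0.96), with the direction of the ratio taken from the dye labels.

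Lysosomes are acidic organelles in which many hydrolases break down proteins, glycans and lipids delivered by endocytosis, phagocytosis and autophagy. Most soluble hydrolases are tagged with mannose-6-phosphate in the Golgi and carried to the lysosome by receptors, while heavily glycosylated membrane proteins line the organelle and a proton pump acidifies it. Many of the genes are targets of the transcription factor TFEB and its relatives, which bind an E-box within the so-called CLEAR element. In macrophages the same enzymes digest engulfed microbes, and cathepsins also process antigens and the invariant chain of MHC class II.

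After 48 h of LPS and LBP, 16 of the 35 tested lysosomal genes were higher and 2 were lower in treated cells. Over all 9160 genes tested, 15.0% were higher and 12.8% were lower, 27.8% in either direction. At an unadjusted p under 0.05, 17 of the 35 were higher and 2 lower. Of all 9160 genes 1805 were higher and 1782 lower at that level. The median log2 ratio of the 35 genes was 0.24, against -0.01 over all genes tested, and 24 of the 35 means lay above 0. An increase of 1.5-fold was reached by 6 of the 35 genes and by 6.71% of all genes. An increase of 2-fold was reached by 1 of the 35, the cholesterol carrier Npc2, and by 2.95% of all genes. On all 6 arrays 14 of the 35 genes lay above 0 and 3 lay below it, and 16.4% and 14.5% of all genes did so. With exact zeros kept as values, 14 of 39 genes were higher and 1 was lower, where 8.81% and 5.93% of all genes were called.

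**Figure D1:**
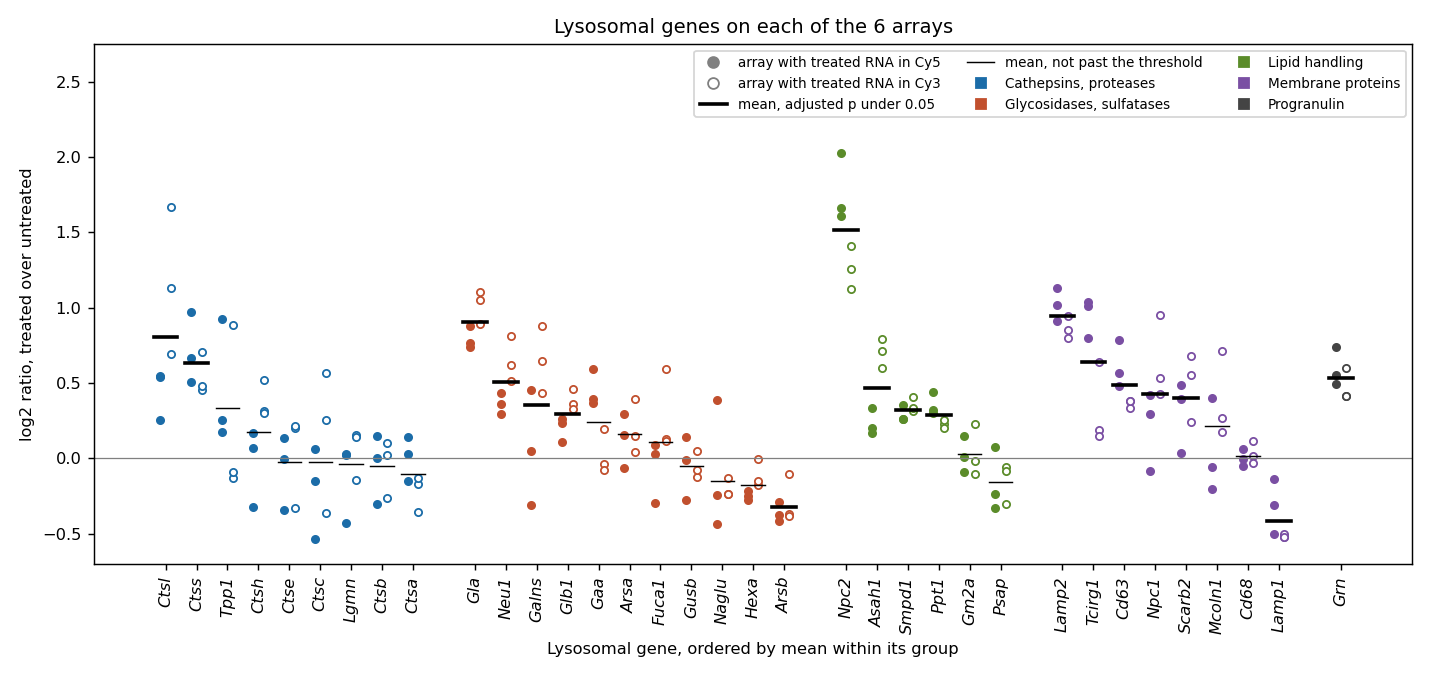
Log2 ratios of treated over untreated cells (vertical axis) for the 35 tested lysosomal genes (horizontal axis), with filled points for arrays with treated RNA in Cy5, open points for arrays with treated RNA in Cy3, and bars for the means. Npc2 stands highest at 1.51 and Lamp1 lowest at -0.42, and most cathepsins scatter on both sides of 0.

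**Figure D2:**
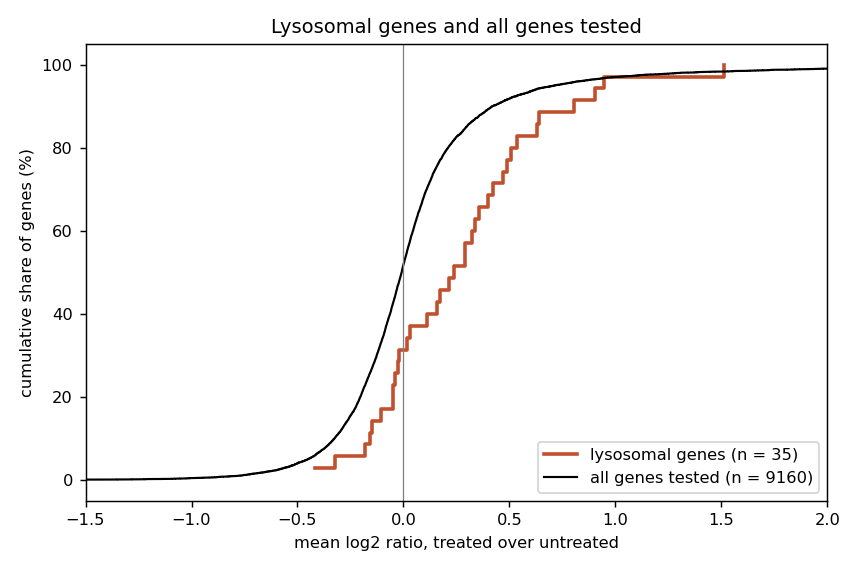
Cumulative share of genes (vertical axis, percent) by mean log2 ratio of treated over untreated cells (horizontal axis, drawn from -1.5 to 2), for the 35 lysosomal genes in orange and all 9160 tested genes in black. The lysosomal curve lies to the right over most of the range, with medians of 0.24 and -0.01.

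Among the lipid enzymes and lipid-handling proteins 4 of 6 tested genes were higher and 0 were lower, with a median of 0.31 (at an unadjusted p under 0.05 the counts were also 4 and 0). Npc2 is the soluble protein that binds cholesterol in the lysosome lumen and hands it to the membrane protein Npc1 for export. Npc2 read 1.66, 2.03 and 1.61 on the arrays with treated RNA in Cy5 and 1.41, 1.25 and 1.12 on those with treated RNA in Cy3. Every array was above 1, and the mean was 1.51 ± 0.14 (2.85-fold, adjusted p = 1.38e-05). Its other probe was listed at 0 on all 6 arrays, and with zeros kept the average of both probes was 0.76 (adjusted p = 0.0137). Its partner Npc1, counted among the membrane proteins, read 0.29, -0.08 and 0.42 on the arrays with treated RNA in Cy5 and 0.54, 0.95 and 0.43 on those with treated RNA in Cy3. The mean was 0.42 ± 0.01 (adjusted p = 0.00578), but its probes differed. One of them gave 0.78 ± 0.12 and lay between 0.55 and 0.96 on all arrays, and the other gave 0.06 ± 0.13 and ranged from -0.83 to 0.95. The SD of 0.01 therefore does not show a precise value.

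Acid ceramidase Asah1, which cleaves ceramide, read 0.33, 0.20 and 0.17 on the arrays with treated RNA in Cy5 and 0.71, 0.79 and 0.60 on those with treated RNA in Cy3. All arrays were above 0, with the higher values in the Cy3 orientation, and the mean was 0.47 ± 0.07 (adjusted p = 0.00436). Acid sphingomyelinase Smpd1, which makes ceramide from sphingomyelin, read 0.36, 0.26 and 0.26 on the arrays with treated RNA in Cy5 and 0.31, 0.33 and 0.40 on those with treated RNA in Cy3. It rose by 0.32 ± 0.02 on these closely spaced arrays (adjusted p = 0.0191), and its 2 probes gave 0.30 and 0.34. Ppt1, the thioesterase that removes palmitate from proteins, read 0.30, 0.44 and 0.32 on the arrays with treated RNA in Cy5 and 0.22, 0.20 and 0.25 on those with treated RNA in Cy3. It rose by 0.29 ± 0.03 (adjusted p = 0.0288), from probes at 0.20 and 0.38 that were above 0 on all arrays. The activator proteins did not pass: Psap, the precursor of the saposins, averaged -0.16 ± 0.15 (95% interval -0.36 to 0.05) and the GM2 activator Gm2a 0.03 ± 0.14 (-0.17 to 0.23). The acid lipase Lipa, which frees cholesterol from its esters, could not be tested because 1 array was listed at 0. Its other 5 arrays were all below 0, between -1.05 and -0.28. When set means were taken from the arrays with a value, Lipa averaged -0.54 ± 0.36 (adjusted p = 0.0257).

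Of 8 membrane proteins 5 were higher and 1 was lower, with a median of 0.41. The structurally related proteins Lamp1 and Lamp2 are the most abundant glycoproteins of the lysosomal membrane, and their genes went opposite ways. Lamp2, which also takes part in chaperone-mediated autophagy, read 1.13, 0.91 and 1.02 on the arrays with treated RNA in Cy5 and 0.95, 0.85 and 0.80 on those with treated RNA in Cy3. Its mean was 0.94 ± 0.08 (1.92-fold, adjusted p = 1.29e-04). Lamp1 read -0.50, -0.14 and -0.31 on the arrays with treated RNA in Cy5 and -0.52, -0.50 and -0.52 on those with treated RNA in Cy3. Its mean was -0.42 ± 0.10 (adjusted p = 0.00818), and no array of Lamp1 overlapped with one of Lamp2. The difference between these genes within an array lay between 1.05 and 1.64. Each is represented by 1 probe, and splice forms were not resolved.

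Tcirg1, the a3 subunit of the proton pump, read 1.01, 1.04 and 0.80 on the arrays with treated RNA in Cy5 and 0.64, 0.19 and 0.15 on those with treated RNA in Cy3. All arrays were above 0, those in the Cy5 orientation clearly more so, and the mean was 0.64 ± 0.18 (1.56-fold, adjusted p = 0.00194). The tetraspanin Cd63 read 0.57, 0.79 and 0.48 on the arrays with treated RNA in Cy5 and 0.38, 0.33 and 0.38 on those with treated RNA in Cy3. It rose by 0.49 ± 0.07 (adjusted p = 0.00346) from 1 probe. Its other probe was listed at 0 on 3 arrays and was above 0 on the remaining 3. Scarb2, the receptor that carries glucocerebrosidase to the lysosome, read 0.49, 0.39 and 0.03 on the arrays with treated RNA in Cy5 and 0.68, 0.55 and 0.24 on those with treated RNA in Cy3. It rose by 0.40 ± 0.23 (adjusted p = 0.0243), with both arrays of set 3 lowest. The macrophage marker Cd68, a heavily glycosylated lysosomal protein, stood at 0.02 ± 0.06 (95% interval -0.17 to 0.20), and its arrays spanned only -0.05 to 0.12. The calcium channel Mcoln1 averaged 0.21 ± 0.29 without passing, from probes at 0.43 ± 0.20 and -0.01 ± 0.39.

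Among glycosidases and sulfatases 4 of 11 tested genes were higher and 1 was lower, with a median of 0.16. Alpha-galactosidase A, Gla, which removes terminal galactose from globotriaosylceramide, read 0.88, 0.74 and 0.76 on the arrays with treated RNA in Cy5 and 1.05, 1.11 and 0.89 on those with treated RNA in Cy3. The arrays lay close together, and the mean was 0.90 ± 0.07 (1.87-fold, adjusted p = 1.52e-04). The sialidase Neu1 read 0.43, 0.36 and 0.30 on the arrays with treated RNA in Cy5 and 0.81, 0.51 and 0.62 on those with treated RNA in Cy3. It rose by 0.51 ± 0.10 (adjusted p = 0.00346), with both probes at 0.50 to 0.51. Beta-galactosidase Glb1, which forms a complex with Neu1 and the protective protein Ctsa, read 0.26, 0.24 and 0.11 on the arrays with treated RNA in Cy5 and 0.36, 0.46 and 0.32 on those with treated RNA in Cy3. It rose by 0.29 ± 0.07 (adjusted p = 0.0311). Ctsa itself averaged -0.11 ± 0.13 (95% interval -0.31 to 0.10) and did not pass.

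The sulfatases differed from each other. Galns, which removes sulfate from keratan sulfate, read 0.45, -0.31 and 0.05 on the arrays with treated RNA in Cy5 and 0.88, 0.64 and 0.43 on those with treated RNA in Cy3. The orientations overlapped only slightly, 1 array was below 0, and the mean of 0.36 ± 0.27 was just past the threshold (adjusted p = 0.0468). Arsb, which acts on dermatan sulfate, read -0.29, -0.42 and -0.38 on the arrays with treated RNA in Cy5 and -0.10, -0.37 and -0.39 on those with treated RNA in Cy3. It was below 0 on all arrays and averaged -0.32 ± 0.11 (adjusted p = 0.0246). Arsa, which acts on sulfatide, stood at 0.16 ± 0.16 and did not pass. Neither did Hexa, the alpha subunit of beta-hexosaminidase, at -0.18 ± 0.04, although all 6 arrays were below 0, 1 of them only just (adjusted p = 0.135). The acid glucosidase Gaa averaged 0.24 ± 0.08 (adjusted p = 0.0661), with 0.36 to 0.59 in the Cy5 orientation and -0.08 to 0.19 in the Cy3 orientation. The fucosidase Fuca1 (0.11 ± 0.04), the glucuronidase Gusb (-0.05 ± 0.07) and the heparan sulfate enzyme Naglu (-0.15 ± 0.24) did not pass. Fuca1 had 1 probe at 0.34 ± 0.13 and above 0 on all arrays, and another at -0.12 ± 0.07 that ranged from -0.96 to 0.63. The arrays of Fuca1 ran from -0.29 to 0.59. Its SDs of 0.04 and 0.07 after averaging the orientations do not show precise values. The mannosidase Man2b1 was listed at 0 on 1 array and lay between -0.45 and 0.25 on the others.

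Of 9 tested cathepsins and other proteases 2 were higher and 0 were lower, and the median was -0.02 (at an unadjusted p under 0.05 the counts were also 2 and 0). The 2 higher genes were 22.2% of the 9, where 15.0% of all genes were higher. Cathepsin L, Ctsl, a cysteine protease, read 0.55, 0.25 and 0.54 on the arrays with treated RNA in Cy5 and 1.13, 1.67 and 0.69 on those with treated RNA in Cy3. All arrays were above 0 with the larger values in the Cy3 orientation, and the mean was 0.80 ± 0.18 (1.75-fold, adjusted p = 6.01e-04). Its other probe was listed at 0 on all 6 arrays, and with zeros kept the average was 0.40 (adjusted p = 0.0337). Cathepsin S, Ctss, the protease that trims the invariant chain in antigen-presenting cells, read 0.51, 0.97 and 0.66 on the arrays with treated RNA in Cy5 and 0.46, 0.71 and 0.48 on those with treated RNA in Cy3. Both probes gave like values, 0.59 and 0.67, and the mean was 0.63 ± 0.19 (1.55-fold, adjusted p = 0.00225).

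The other cysteine and aspartic proteases showed no call. Cathepsin B, Ctsb, stood at -0.05 ± 0.21 (95% interval -0.28 to 0.18), and the dipeptidyl peptidase Ctsc, which activates granule serine proteases, at -0.03 ± 0.39 (-0.35 to 0.29). Ctsc read -0.54 and -0.36 on the 2 arrays of set 1 and 0.06 and 0.57 on those of set 3. Ctse averaged -0.02 ± 0.28 and legumain, Lgmn, which cleaves after asparagine, -0.04 ± 0.22. The aminopeptidase Ctsh averaged 0.17 ± 0.07 (adjusted p = 0.153), from 1 probe at 0.41 ± 0.04 that was above 0 on all arrays and another at -0.06 ± 0.12. The arrays of Ctsh ran from -0.32 to 0.52, and those of its higher probe from 0.05 to 0.73. The SDs of 0.07 and 0.04 after averaging the orientations therefore do not show precise values. Tpp1, a tripeptidyl peptidase, read 0.92 and 0.88 on the arrays of set 1 but -0.13 to 0.25 on the other 4, and averaged 0.34 ± 0.49 (adjusted p = 0.171). Its other probe was listed at 0 on the 3 arrays of the Cy3 orientation and read 0.38, 0.54 and 0.58 in the Cy5 orientation. Cathepsin D, Ctsd, the main aspartic protease, was not tested because both probes held zeros. Its probe with 5 values ranged from -0.33 to 0.50. Ctsz was listed at 0 on 4 arrays, and the remaining 2 read 0.26 and -0.59.

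Progranulin, Grn, a secreted and lysosomal glycoprotein that is cleaved into granulins by cathepsins, read 0.55, 0.74 and 0.49 on the arrays with treated RNA in Cy5 and 0.60, 0.41 and 0.41 on those with treated RNA in Cy3. All arrays were above 0 and the mean was 0.53 ± 0.07 (1.45-fold, adjusted p = 0.00225). The 2 tested probes gave 0.51 and 0.56, and the third was above 0 on the 3 arrays where it had a value.

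The sign of the treatment effect held in both dye orientations for all 18 called genes on average, but the size did not always. In limma 0 of the 35 genes passed a test of the difference between orientations, where 0.142% of all tested genes did. An unadjusted p under 0.05 was found for 9 of the 35 and for 25.5% of all tested genes. The count of 0 does not show that the genes are free of a dye effect. Cathepsin K, Ctsk, of a related list below, had opposite signs in the 2 orientations and did not pass this limma test either (adjusted p = 0.104). Ctsl averaged 0.45 in the Cy5 orientation and 1.16 in the Cy3 orientation. The corresponding means were 0.95 and 0.32 for Tcirg1, 0.23 and 0.70 for Asah1, 0.21 and 0.64 for Npc1, and 0.06 and 0.65 for Galns. The means over both orientations were 0.80, 0.64, 0.47, 0.42 and 0.36 for these genes.

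**Figure D3:**
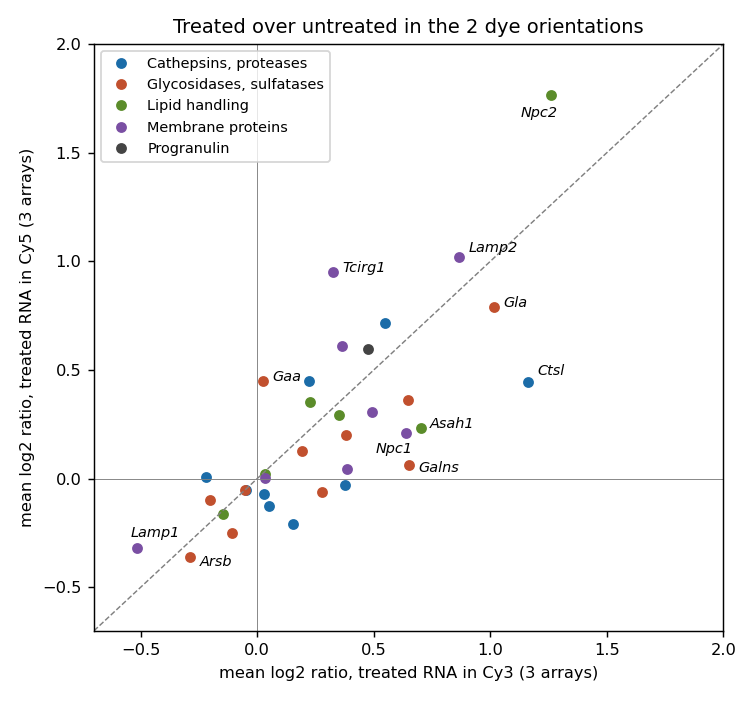
Mean log2 ratio of treated over untreated cells on the 3 arrays with treated RNA in Cy5 (vertical axis) against the 3 arrays with treated RNA in Cy3 (horizontal axis), 1 point for each of the 35 tested genes, with a dashed line of equality. Npc2, Lamp2 and Gla are high and Lamp1 and Arsb low in both orientations, while Ctsl and Galns lie below the line and Tcirg1 above it.

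Of the 18 calls, 8 held in all 19 alternative settings tried, those of Npc2, Lamp2, Gla, Ctsl, Ctss, Grn, Neu1 and Cd63. Some held narrowly, with a highest adjusted p of 0.0497 for Neu1, 0.048 for Cd63 and 0.0459 for Grn. The other 10 calls were lost in at least 1 setting, with 0 changes of sign among called genes. Tcirg1 lost its call on the Cy3 orientation alone (adjusted p = 0.086). Lamp1 lost it without the Cy3 array of set 2 (adjusted p = 0.0715) and on the Cy5 orientation alone (0.0994). Npc1 lost it in the same 2 cases, with a mean of 0.25 (adjusted p = 0.237) and 0.21 (0.299). Asah1 lost it without the Cy3 array of set 2 (adjusted p = 0.0563) or set 3 (0.0538) and on the Cy5 orientation alone (0.16).

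The calls of Glb1, Smpd1 and Ppt1 were lost without any 1 set (adjusted p = 0.0629 to 0.119, 0.0581 to 0.0707 and 0.0769 to 0.103) and without the Cy3 array of set 2 (adjusted p = 0.12, 0.0699 and 0.0642) or of set 3 (adjusted p = 0.132, 0.0742 and 0.0706). Ppt1 was also lost without the Cy5 array of set 1, 2 or 3 (adjusted p = 0.0636, 0.097 and 0.0618). On the Cy5 orientation alone Glb1, Smpd1, Ppt1, Scarb2 and Arsb had adjusted p-values of 0.215, 0.09, 0.0542, 0.134 and 0.0504. On the Cy3 orientation alone Ppt1 averaged 0.23 (adjusted p = 0.124) and Arsb -0.29 (0.0817), so both were lost in each orientation alone. The call of Scarb2 was lost without set 1 (adjusted p = 0.0953), without set 2 (0.0928), without the Cy3 array of set 2 (0.0719) or set 3 (0.105), and with zeros kept (0.106). The call of Arsb was lost without set 2 (adjusted p = 0.102) or set 3 (0.101), without the Cy5 array of set 1 (0.0721) or set 2 (0.0526), without the Cy3 array of set 2 (0.0668) or set 3 (0.0683), and with zeros kept (0.0569). Galns kept its call in 8 of 19 settings and averaged 0.20 without set 1 (adjusted p = 0.245) or without the Cy3 array of set 2 (0.504), with 0.06 on the Cy5 orientation alone (0.81). It was also lost without set 3 (adjusted p = 0.0628), without the Cy5 array of set 1 (0.0621), and without the Cy3 array of set 1 (0.06) or set 3 (0.196).

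The promoters of these genes were searched for motifs in the RefSeq promoter table for GRCm38.p6, which gives 250 bases before and 50 after each annotated start and matched 34 of the 40 genes. The E-box at the centre of the CLEAR element was written CACGTG, which reads the same on both strands. It was present in 11 of the 34 genes (32.4%), and in 8.09% of all 27025 genes in the table. That table includes genes with no tested probe. Of the tested genes with a promoter entry, 800 held an E-box and 6501 did not, a larger share than 8.09%. The stretches shown are those of genes whose calls are described above, with Mcoln1 beside Lamp1 as a gene that did not pass, and capitals mark each E-box. They end at the last base before the start for Lamp1 (chr8:13159061-13159160, plus strand), Glb1 (chr9:114400998-114401077, plus strand) and Mcoln1 (chr8:3500419-3500518, plus strand), and begin 250 bases before it for Gla (chrX:134601156-134601255, minus strand) and Ctsl (chr13:64370711-64370770, minus strand).
Lamp1: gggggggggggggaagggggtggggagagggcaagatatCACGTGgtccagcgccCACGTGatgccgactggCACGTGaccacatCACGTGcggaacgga
Mcoln1: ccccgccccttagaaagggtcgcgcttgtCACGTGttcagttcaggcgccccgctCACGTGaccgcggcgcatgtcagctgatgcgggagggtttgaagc
Glb1: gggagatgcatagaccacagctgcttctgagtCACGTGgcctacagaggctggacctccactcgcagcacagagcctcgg
Gla: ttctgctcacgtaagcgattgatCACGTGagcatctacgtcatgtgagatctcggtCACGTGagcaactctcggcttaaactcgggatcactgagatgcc
Ctsl: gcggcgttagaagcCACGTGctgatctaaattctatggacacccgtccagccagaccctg

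Lamp1, which fell, held 4 E-boxes within 61 bases of its start, more than any other lysosomal gene searched, and Gla, which rose, held 2 that begin 227 and 194 bases before its start. An E-box was found in 3 of 13 matched lysosomal genes that were higher (Gla, Ctsl and Glb1), in 1 of 2 that were lower (Lamp1), and in 6 of 14 that did not pass (Gaa, Mcoln1, Arsa, Lgmn, Ctsa and Naglu). Ctsd, which was not tested, also held 2. Over all tested genes with a promoter entry, 15.1% of the 800 with an E-box and 15.0% of the 6501 without one were higher, and 16.1% and 12.7% were lower. The longer form TCACGTGA, which contains the E-box, was in 4 of the 34 genes (Gla, Mcoln1, Ctsa and Ctsd) and in 1.12% of all genes. The full palindrome, which adds a G before and a C after that form, was in 0 of the 34 and in 0.37% of all genes.

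**Figure D4:**
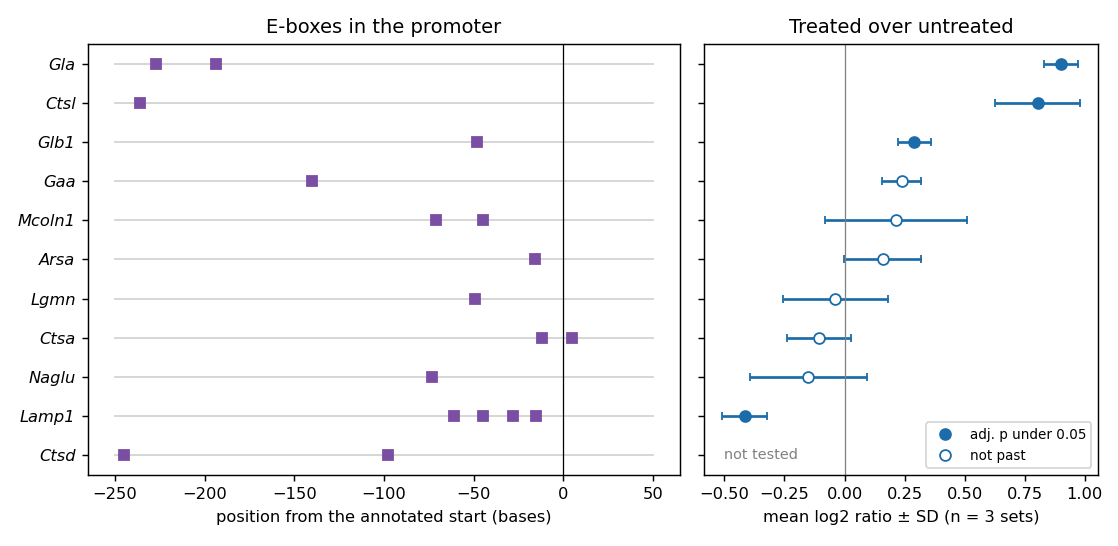
Start of each E-box (squares, left panel) relative to the annotated start in bases for the 11 lysosomal genes that hold one, and the mean log2 ratio, treated over untreated, with bars of ± SD over 3 sets (right panel), ordered by that ratio. Genes with an E-box span the range from Gla at 0.90 to Lamp1 at -0.42.

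A motif of the interferon-stimulated response element, written GAAA, any 2 bases, GAAA on either strand, was in 3 of the 34 genes, Ctss, Tcirg1 and Lamp1, and in 3.99% of all genes. The Ctss match is shown because it lies 21 bases before the start of a gene that rose and has no E-box. Capitals mark it in the 250 bases before the start (chr3:95526536-95526785, plus strand).
Ctss: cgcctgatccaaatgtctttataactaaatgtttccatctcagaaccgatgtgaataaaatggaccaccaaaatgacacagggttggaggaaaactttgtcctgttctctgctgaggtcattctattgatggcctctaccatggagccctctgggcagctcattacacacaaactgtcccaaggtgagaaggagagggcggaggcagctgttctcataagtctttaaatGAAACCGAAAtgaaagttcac
In Tcirg1, which rose, the match was in 1 of 3 annotated promoters, 199 bases before that start. In Lamp1, which fell, it was 135 bases before the start. A part of this motif in the ratios of these genes was not tested. A kB motif, written GGGA, any 2 bases, TTCC on either strand, was in 0 of the 34 and in 1.63% of all genes.

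The other genes of the lysosome were read from 7 lists. Their counts stand against 15.0% higher and 12.8% lower over all genes tested. Of 22 other tested hydrolases 6 were higher and 1 was lower, with a median of 0.07. The tartrate-resistant phosphatase Acp5 rose by 1.40 ± 0.33, the phospholipase family member Pld3 by 0.85 ± 0.06, the iduronate sulfatase Ids by 0.60 ± 0.28 and the acid phosphatase Acp2 by 0.57 ± 0.24. The carboxypeptidase Prcp fell by 0.44 ± 0.17, and Galc, which removes galactose from galactosylceramide, stood at -0.46 ± 0.53 without passing. Cathepsin K, Ctsk, the collagen-degrading protease of osteoclasts, read -0.93, -1.52 and -1.09 in the Cy5 orientation and 0.74, 1.34 and 1.08 in the Cy3 orientation. Its mean of -0.06 averages opposite values and does not show that the gene was unchanged.

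Among 14 other membrane proteins of lysosomes and late endosomes 5 were higher and 2 were lower, with a median of 0.20. The peptide and histidine transporter Slc15a3 rose by 2.26 ± 0.11 (adjusted p = 1.6e-06), above every gene of the main set. Litaf rose by 0.63 ± 0.15 and Slc11a1, the divalent metal transporter of phagosomes, by 0.56 ± 0.19. Laptm5, a lysosomal protein of blood cells, fell by 0.42 ± 0.25 and the transporter Abca2 by 0.73 ± 0.19, whereas Laptm4a rose by 0.49 ± 0.19.

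Of 13 subunits of the proton pump (V-ATPase) 3 were higher and 0 were lower, with a median of 0.18 (5 and 0 at an unadjusted p under 0.05). They were Atp6v1b2 (0.35 ± 0.14), Atp6v1d (0.35 ± 0.10) and Atp6v0a2 (0.30 ± 0.07), and Atp6v1f (-0.04) and Atp6v1c1 (-0.08) were lowest without passing. The 3 higher genes were 23.1% of the list. At an unadjusted p under 0.05, 1805 of all 9160 genes were higher and 1782 lower. In the sorting and mannose-6-phosphate pathway 2 of 15 genes were higher and 1 was lower, with a median of 0.16. These are 13.3% and 6.67% of the list, below the 15.0% and 12.8% of all genes. The adaptor subunit Ap3s1 rose by 0.35 ± 0.10 and the cation-dependent mannose-6-phosphate receptor M6pr by 0.28. The arrays of M6pr ran from 0.01 to 0.56, and its SD of 0.0048 after averaging the orientations does not show a precise value. The adaptor subunit Ap1m1 fell by 0.41 ± 0.22. It read -0.45, -0.12 and 0.10 in the Cy5 orientation and -0.79, -0.75 and -0.47 in the Cy3 orientation. Ap3d1 was at -0.15 without passing.

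Inhibitors of cathepsins went both ways. Of 8 tested genes 3 were higher and 2 were lower, with a median of 0.14. The stefin Stfa3 rose by 2.28 ± 0.05 (adjusted p = 1.21e-06). Its arrays ran from 1.81 to 2.88, so the SD after averaging the orientations does not show a precise value. Stefin A genes lie in a cluster of near-identical copies, so the 2 Stfa3 probes may read several of them. The probe of Stfa2, of the same cluster, averaged 0.09 ± 0.31 without passing (adjusted p = 0.631). The cytosolic inhibitor cystatin B, Cstb, rose by 0.49 ± 0.04 (adjusted p = 0.00326). Cystatin F, Cst7, an inhibitor that is itself sorted to lysosomes, fell by 1.09 ± 0.18 (adjusted p = 1.23e-04), and Cst6 fell by 0.45 ± 0.16. The secreted inhibitor cystatin C, Cst3, stood at -0.22 ± 0.10 (adjusted p = 0.0864).

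Of 12 tested transcription factors and mTORC1 nutrient-sensing genes 0 were higher and 2 were lower, with a median of -0.02 (0 and 2 at an unadjusted p under 0.05). The 2 lower genes were 16.7% of the list, near the 12.8% of all genes. The TFEB relative Tfec fell by 0.35 ± 0.05 (adjusted p = 0.015) and the E-box factor Usf2 by 0.42 ± 0.10 (adjusted p = 0.00841). Tfeb averaged -0.21 ± 0.17 (95% interval -0.42 to 0.01) and Mitf -0.15 ± 0.26 (-0.40 to 0.10). The highest, Lamtor3 (0.11) and Rragc (0.09), did not pass. Of 15 autophagy genes 3 were higher and 1 was lower, with a median of 0.06. These are 20% and 6.67% of the list, against 15.0% and 12.8% of all genes. Atg12, the ubiquitin-like conjugation protein, rose by 0.62 ± 0.25, Map1lc3a by 0.37 ± 0.05 and Gabarapl1 by 0.28 ± 0.12, and Uvrag fell by 0.41 ± 0.21. Atg3 was at -0.11 without passing.

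**Figure D5:**
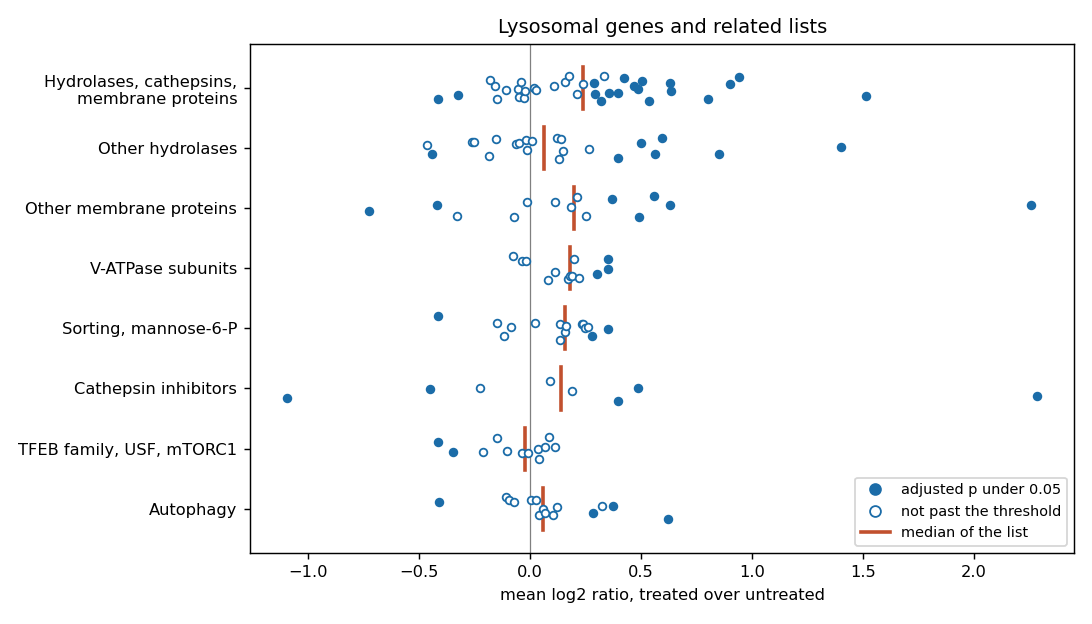
Mean log2 ratio of treated over untreated cells (horizontal axis) for every tested gene of the lysosomal set and of 7 related lists (rows), filled where the adjusted p was under 0.05, with the median of each list as an orange bar. Medians run from -0.02 in the row of transcription factors and mTORC1 genes to 0.24 in the lysosomal set, and the widest spread is among cathepsin inhibitors.

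Among 5 tested macrophage markers Adgre1 was higher (0.94 ± 0.09) and Csf1r lower (-0.53 ± 0.22), with Spi1, Cd14 and Mrc1 between 0.00 and 0.03. Of 7 tested markers of other cell types 2 were higher, Dcn (2.68 ± 0.95) and Cd79a (0.63 ± 0.11), and 0 were lower (2 and 0 at an unadjusted p under 0.05), over a range of -0.19 to 2.68. Over all genes tested, 15.0% were higher and 12.8% lower. The part of these markers in the ratios of the lysosomal genes was not tested.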

How the data were processed

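The authors deposited 1 log ratio of Cy5 over Cy3 per probe and array, with the dyes given per the labels. The deposited values were read as log2. Their base, background correction, dye normalization and filtering of spots are, in the sources at hand, not given, and no spot intensities were used. Where treated RNA was in Cy3, the sign was turned. Exact zeros were set to missing, and 12724 of 16281 probes had a value on all 6 arrays. Probes with 1 platform symbol (13738; 52 had several and 2491 none) were averaged per gene. A RefSeq gene table matched 13694 of them by gene ID and changed 0 symbols. Averaging the 2 orientations of each set removes a constant dye effect. limma 3.58.1 then tested the 3 resulting means against 0 in R 4.3.3 (an intercept fit, eBayes, two-sided, Benjamini-Hochberg over 9160 genes). Intervals are 95% intervals of that fit. The difference between orientations was tested likewise. The procedure was tested on simulated data with no zeros and no differing probes. Their correlation within sets was set below the 0.355 estimated from the data. The 3 set means, with 2 residual degrees of freedom, limit the precision.

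The members and lists were chosen with earlier results of these data known. All 40 members are accounted for. Values on every array are given for the 18 called genes, and of each related list the 2 highest and 2 lowest tested genes and any called transcription factor were to be named. Further genes (Ids, Acp2, Ctsk, Slc11a1, Laptm4a, Atp6v0a2, Cst3, Stfa2, Tfeb, Mitf and Gabarapl1) and the motifs were chosen after their values were seen. Alternatives covered zeros, unit of replication, centring, scaling, probe averaging, moderation, orientation, and each set or array left out.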

Additional observations from a re-analysis of the deposited data

How the results depend on the processing

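Under 19 alternatives, 0 of the 18 called lysosomal genes changed sign, and 8 kept their call in every one. The count of higher lysosomal genes was 16. It was 14 with zeros kept and 16 with set means from available arrays, where Galns was lost (adjusted p = 0.0598) and Tpp1 passed. It was 19 with each probe fitted alone, where a gene counted if any of its probes passed. On the Cy5 orientation alone it was 10. Leaving out a set or an array gave 9 to 15, lowest without the Cy3 array of set 2. The count of lower lysosomal genes was 2. It was 3 with set means from available arrays, where Lipa was added, and 1 with zeros kept. On the Cy5 orientation alone it was 0 and on the Cy3 orientation alone 1, and leaving out a set or array gave 0 to 2. A set with 1 array left keeps its dye effect. Over all genes, 1371 were higher and 1171 lower, 634 were lower with zeros kept, and leaving out a set or array gave 896 to 1232 higher and 641 to 1035 lower. In the related lists 22 of 99 tested genes were higher and 9 lower. With zeros kept 3 were lower, on the Cy5 orientation alone 14 were higher, and leaving out a set or array gave 15 to 21 higher and 6 to 11 lower. The cause of these shifts was not tested. Probe choice lifted Ctsh, Fuca1 and Mcoln1 past the threshold, at 0.41, 0.34 and 0.43 from single probes. Tpp1 passed with set means from available arrays (0.42, adjusted p = 0.0215). That setting added its probe with values in the Cy5 orientation only, whose dye effect does not cancel. Gaa passed with no replicate block (0.0264) and on the Cy5 orientation alone (0.0294), Ctsh on the Cy3 orientation alone (0.0287) and Hexa with no replicate block (0.0475).

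The same-set arrays of the 2 orientations deviated together at r = 0.54, 0.08 and 0.18 across genes for sets 1, 2 and 3, and arrays of different sets at -0.38 to 0.14. Set 1 lay well above the range of different sets, set 3 just above it and set 2 within it. Set numbers were therefore not shown to pair arrays in every set. With all 6 arrays in the fit and set as a replicate block (correlation 0.355), 15 lysosomal genes were higher and 2 lower, with Galns lost (adjusted p = 0.0584). With no replicate block the counts were 17 and 3.

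In limma 0 lysosomal genes passed the test of dye orientation with zeros missing (9 at an unadjusted p under 0.05, against 25.5% of all genes), and 0 with zeros kept. These counts do not show that the genes are free of a dye effect.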
